A study of Homo sapiens with 2 samples.

Results

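The 45 genes described here encode the constitutive proteasome and the factors that cap or build it. They were chosen by symbol, as every PSMA to PSMG gene with a number and no pseudogene suffix, leaving out PSMB8, PSMB9 and PSMB10 of the immunoproteasome, out of 62699 genes with counts. RNA from HCC1954 cells, an established human breast cancer line labelled as HER2-positive, was sequenced after poly(A) capture in 1 library with the genotype label ASO-1235 and 1 library with the label ASO-NC. The series asks how the long non-coding RNA LINC01235 affects transcription in this line.

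The proteasome degrades proteins that carry ubiquitin chains. Its 20S core is a barrel of stacked rings of PSMA (alpha) and PSMB (beta) subunits, with the proteolytic sites on PSMB5, PSMB6 and PSMB7 facing the inner chamber. The 19S regulatory particle caps the barrel: its base holds the PSMC ATPases that unfold substrates, and its lid holds the deubiquitinase PSMD14 that removes ubiquitin chains. Other caps, the PSME activators, can take its place, and PSMG proteins, PSMD5, PSMD9 and PSMD10 serve as assembly chaperones. The transcription factor NRF1, encoded by NFE2L1, raises proteasome gene transcription through antioxidant response elements (AREs) when proteasome activity is short.

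Promoters of 6 genes are shown, chosen by the values of these genes. PSMD3 and PSMB3 had the highest levels of all members. PSMG4, PSME1 and PSME2 had the lowest ratios between the libraries, and PSMD12 the highest ratio. Each run is 300 bases from RefSeq (GRCh38.p14), read 5′ to 3′ on the strand of the gene, from 250 bases before its start. Capitals mark matches on either strand to the ARE core TGACNNNGC or to GAAA repeated after 2 bases, a core of the interferon-stimulated response element (ISRE). No marked pair overlaps.
PSMD3, chr17:39980557-39980856, plus strand: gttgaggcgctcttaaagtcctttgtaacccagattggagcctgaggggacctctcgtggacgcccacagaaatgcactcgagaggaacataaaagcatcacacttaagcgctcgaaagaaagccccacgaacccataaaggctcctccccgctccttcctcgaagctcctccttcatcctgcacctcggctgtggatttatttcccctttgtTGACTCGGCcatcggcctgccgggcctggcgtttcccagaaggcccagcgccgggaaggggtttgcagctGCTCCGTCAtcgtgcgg
PSMB3, chr17:38752491-38752790, plus strand: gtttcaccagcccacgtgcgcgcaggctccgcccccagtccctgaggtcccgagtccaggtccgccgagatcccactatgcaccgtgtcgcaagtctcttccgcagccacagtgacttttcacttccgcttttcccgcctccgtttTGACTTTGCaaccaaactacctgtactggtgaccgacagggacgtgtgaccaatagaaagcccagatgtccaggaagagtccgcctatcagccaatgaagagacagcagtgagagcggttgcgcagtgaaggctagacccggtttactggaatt
PSME1, chr14:24135944-24136243, plus strand: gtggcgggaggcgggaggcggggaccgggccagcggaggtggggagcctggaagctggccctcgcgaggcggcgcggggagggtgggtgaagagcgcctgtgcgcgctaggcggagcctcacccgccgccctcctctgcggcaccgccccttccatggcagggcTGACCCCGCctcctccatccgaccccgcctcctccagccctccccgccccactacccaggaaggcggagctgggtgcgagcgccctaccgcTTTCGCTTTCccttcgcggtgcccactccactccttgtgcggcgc
PSME2, chr14:24146561-24146860, minus strand: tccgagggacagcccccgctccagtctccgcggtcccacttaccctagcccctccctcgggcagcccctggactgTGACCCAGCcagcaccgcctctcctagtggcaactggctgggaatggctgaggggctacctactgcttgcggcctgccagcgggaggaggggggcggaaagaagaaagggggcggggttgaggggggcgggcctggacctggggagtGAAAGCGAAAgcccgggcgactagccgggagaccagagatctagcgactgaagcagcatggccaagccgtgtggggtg
PSMG4, chr6:3258697-3258996, plus strand: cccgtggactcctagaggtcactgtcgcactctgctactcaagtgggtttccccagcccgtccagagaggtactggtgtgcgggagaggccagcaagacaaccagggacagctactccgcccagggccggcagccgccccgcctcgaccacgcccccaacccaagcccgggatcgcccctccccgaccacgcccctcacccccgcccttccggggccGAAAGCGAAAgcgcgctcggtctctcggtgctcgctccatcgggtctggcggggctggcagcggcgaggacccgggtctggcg
PSMD12, chr17:67366528-67366827, minus strand: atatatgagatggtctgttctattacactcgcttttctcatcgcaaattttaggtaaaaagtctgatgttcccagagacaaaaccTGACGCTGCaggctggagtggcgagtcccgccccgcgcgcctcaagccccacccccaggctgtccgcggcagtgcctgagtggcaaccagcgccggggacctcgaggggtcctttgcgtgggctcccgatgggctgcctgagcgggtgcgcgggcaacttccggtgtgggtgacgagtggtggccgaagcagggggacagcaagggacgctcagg

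The ASO-1235 library held 37916307 counts and the ASO-NC library 48092494. LINC01235 had 0 counts in the ASO-1235 library and 1337 in the ASO-NC library. Markers of the line were high in both: ERBB2 stood at 2019 TPM in the ASO-1235 library and 1881 TPM in the ASO-NC library, and KRT8, a keratin of luminal epithelium, at 1504 TPM in ASO-1235 and 1491 TPM in ASO-NC. Of 15 markers of immune cells, fibroblasts, endothelium and adipocytes, 5 reached 1 CPM (counts scaled to library size). Their summed levels in the ASO-1235 library were 1.54 CPM for immune cells, 41.7 CPM for fibroblasts and 10.7 CPM for endothelium and adipocytes, against 2.14, 45.3 and 13.1 CPM in the ASO-NC library. COL1A1, with 1559 counts in ASO-1235 and 2067 in ASO-NC, made up most of the fibroblast sum, and PDGFRB had 0 counts in both. At 1.5-fold, the myeloid gene LYZ was called lower, with 44 counts in ASO-1235 and 98 in ASO-NC, and the fibroblast gene FAP higher, with 53 counts in ASO-1235 and 28 in ASO-NC. The part of other cells in the results was not tested. With 1 library per group there is no replicate check. Every ratio below, ASO-1235 over ASO-NC after TMM scaling, compares these 2 libraries, and its 95% interval covers counting error only. Intervals were computed on halved counts, because both mates of a read pair seem to have been counted. In RNA from whole cultures, a difference in part of the cells and one in every cell cannot be told apart.

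Of the 45 genes, 43 reached 1 CPM in at least 1 library. The other 2 are variants of the core used in particular tissues. PSMA8, the alpha subunit of the testis, had 8 counts in the ASO-1235 library and 0 in the ASO-NC library. PSMB11, the beta subunit of the thymus, had 0 in both, where 3 counts amount to 0.0768 CPM in the ASO-1235 library and 0.0642 CPM in the ASO-NC library. Together the members took 0.622% of all counts in the ASO-1235 library and 0.647% in the ASO-NC library.

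Levels per length varied widely among genes whose products share one complex. Levels are given as TPM, a share of the library per length of the principal transcript, and serve only to compare genes within a library. PSMD3, a scaffold subunit of the lid, had 73608 counts in the ASO-1235 library and 103767 in the ASO-NC library, which amounts to 1732 TPM in ASO-1235 and 1812 TPM in ASO-NC. The median of the other 7 lid genes was 66.3 TPM in the ASO-1235 library and 57.6 TPM in the ASO-NC library, so that PSMD3 stood 26.1-fold above it in ASO-1235 and 31.4-fold in ASO-NC. PSMB3, a beta subunit of the core without a proteolytic site, had 23503 counts in ASO-1235 and 33368 in ASO-NC, or 1544 TPM in ASO-1235 and 1626 TPM in ASO-NC, which was 10.7-fold and 11.6-fold above the median of the other 6 beta genes in the same libraries. Both genes lie on chromosome 17 near ERBB2, which is amplified in this line. PSMD3 spans 39980797 to 39997960, 250.4 kb from ERBB2, and PSMB3 spans 38752736 to 38764231, 924 kb from it (GRCh38, GENCODE 29, both on the plus strand). The DNA copy number was not measured here, and its part in these levels was not tested. PSMD3 and PSMB3 together held 41.2% of the counts of all members in the ASO-1235 library and 44.1% in the ASO-NC library.

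No other member came near these levels, also with lengths from the union of annotated exons. PSME3, which encodes the nuclear activator PA28 gamma and lies 3094 kb from ERBB2, stood at 273 TPM in the ASO-1235 library and 267 TPM in the ASO-NC library. By the union of exons it stood at 67.3 TPM in ASO-1235 and 65.2 TPM in ASO-NC, below PSMB7, which was then at 175 TPM in ASO-1235 and 173 TPM in ASO-NC, so its place among the other members rests on the length used. The beta genes PSMB7 and PSMB4 stood at 251 and 226 TPM in the ASO-1235 library, and at 251 and 223 TPM in the ASO-NC library. The remaining members on chromosome 17 lie farther from ERBB2, and no order by distance is read from them. PSMB6, 34889 kb away, stood at 119 TPM in the ASO-1235 library and 131 TPM in the ASO-NC library. PSMC5, PSMD11 and PSMD12, 24097, 7205 and 27607 kb away, stood between 51.9 and 76.5 TPM in the ASO-1235 library and between 48.3 and 68.1 TPM in the ASO-NC library.

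By the principal transcript, the lowest levels were those of 3 alpha genes and of the assembly chaperone gene PSMD9. PSMA2 had 99 counts in the ASO-1235 library and 109 in the ASO-NC library, or 3.38 TPM in ASO-1235 and 2.76 TPM in ASO-NC. PSMA6 had 266 counts in ASO-1235 and 371 in ASO-NC, or 13.1 TPM in ASO-1235 and 13.6 TPM in ASO-NC. PSMA1 had 504 counts in ASO-1235 and 532 in ASO-NC, or 17 TPM in ASO-1235 and 13.3 TPM in ASO-NC. By the union of exons PSMA6 stood at 2.64 TPM in ASO-1235 and 2.71 TPM in ASO-NC, and PSMA2 at 1.198 TPM in ASO-1235 and 0.970 TPM in ASO-NC. PSMD9 stood at 7.28 TPM in ASO-1235 and 5.56 TPM in ASO-NC by its principal transcript. By the union of exons it stood at 2.94 TPM in ASO-1235 and 2.22 TPM in ASO-NC. PSMA1 was then at 9.86 TPM in ASO-1235 and 7.65 TPM in ASO-NC. PSMG4 was below PSMA1 by that length, at 3.78 TPM in ASO-1235 and 4.36 TPM in ASO-NC, so this order rests on the length used. The highest alpha genes were PSMA3, at 155 TPM in ASO-1235 and 139 TPM in ASO-NC, and PSMA7, at 134 TPM in ASO-1235 and 147 TPM in ASO-NC. Each of the 3 low alpha genes shares exons with a read-through gene on its own strand, which covers 52.5% of the principal transcript of PSMA2, 81.0% of that of PSMA6 and 53.2% of that of PSMA1. These read-through genes had 2, 1 and 0 counts in the ASO-1235 library and 1, 5 and 0 in the ASO-NC library. How the counting treated reads that belong to 2 genes is not given in the sources used here, so the levels of PSMA1, PSMA2 and PSMA6 are uncertain, and the part of the overlap was not tested.

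**Figure D1:**
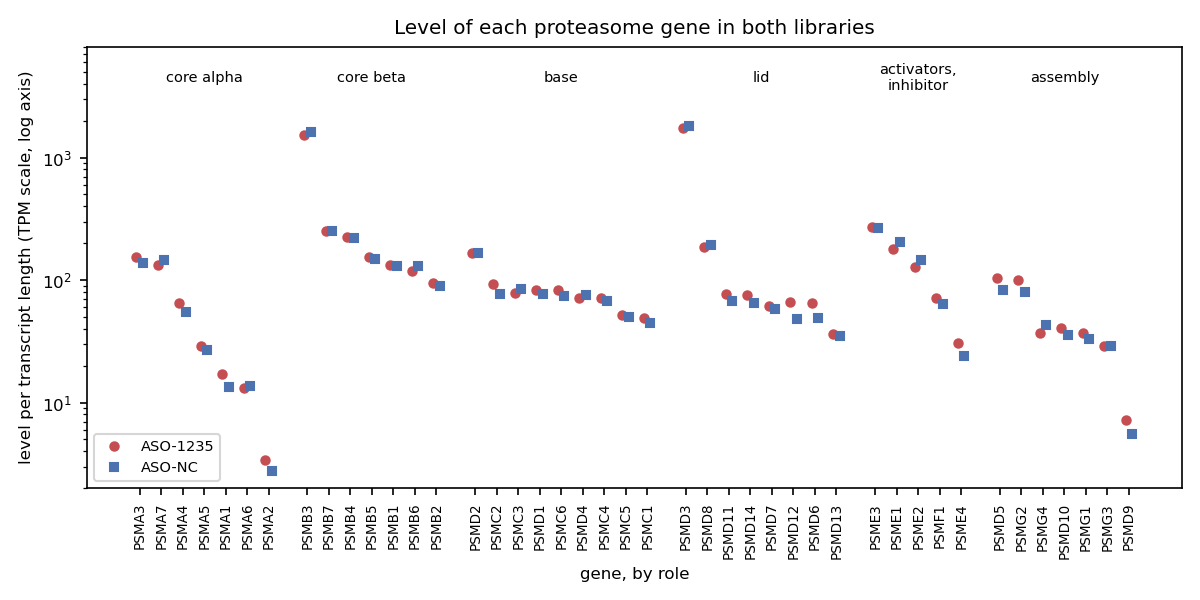
Level of each of the 43 members in TPM (log axis) in the ASO-1235 library (circles) and the ASO-NC library (squares), grouped by role. PSMD3 (1732 TPM in ASO-1235, 1812 TPM in ASO-NC) and PSMB3 (1544 TPM in ASO-1235, 1626 TPM in ASO-NC) stand above all others, and PSMA2 (3.38 TPM in ASO-1235, 2.76 TPM in ASO-NC) is lowest.

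Between the libraries the members differed by little. At 1.5-fold, with an interval that excluded 1, 0 of 43 were lower and 0 were higher in the ASO-1235 library, where 2.03% of 14291 tested genes were called lower and 5.05% higher. Among 7015 genes whose mean was at least 20 CPM, a class that held 38 of the members, these shares were 0.299% and 1.03%. Ratios ran between 0.763 for PSMG4 and 1.22 for PSMD12. At 1.2-fold, 6 members were lower, or 14.0%, where the background was 12.4% of all tested genes and 13.8% of those at 20 CPM. PSMD12 alone was at least 1.2-fold higher, where the backgrounds were 14.6% and 12.9%. The share at least 1.2-fold lower is thus close to the background and is not a result about the proteasome.

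The centre of the distribution lay slightly below that of other genes. Ratios were below 1 for 31 of the 43 members, or 72.1%, where the background was 50.3% of all tested genes and 53.9% of those at 20 CPM or more. The median log2 ratio of the members was −0.091, against −0.0025 for all tested genes and −0.021 for those at 20 CPM or more. The direction rests on the scaling: with libraries scaled by total count, 22 of 43 ratios were below 1 and the median was −0.0062, while the median of all tested genes was 0.086. Set against all tested genes, the members' median differed by −0.09 under each of the 5 scalings tried. A scaling factor shifts all log2 ratios alike, so this agreement was fixed in advance and is not a check. Intervals lay wholly below 1 for 17 members, or 39.5%, where the background was 23.2% of all tested genes and 34.8% of those at 20 CPM or more. For 6 members they lay wholly above 1, where those backgrounds were 22.7% and 28.7%. Summed counts of all members had a ratio of 0.906 (0.899 to 0.913), and of 0.952 (0.943 to 0.962) without PSMD3 and PSMB3.

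In the beta ring of the core every gene lay below 1, under each of the 5 scalings. After TMM scaling 50.3% of all tested genes did, and 53.9% of those at 20 CPM or more. The beta genes lie at 46.4% to 54.9% GC. At 46.2% to 52.1% GC 53.4% of all tested genes were below 1, and at 52.1% to 58.5% GC 70.0% were. With the trend in GC content and length over all genes removed, all 5 activator and inhibitor genes lay below 1 as well. The background was then 53.8% of 13963 genes, and 4207 of 7015 genes at 20 CPM or more. Of the 5, PSME4 had a log2 ratio of −0.019, above the median of −0.022 of those 13963 genes. PSMB6, the caspase-like site, had 1989 counts in the ASO-1235 library and 2954 in the ASO-NC library, a ratio of 0.805 (0.742 to 0.873). PSMB7, the trypsin-like site, had 4846 counts in ASO-1235 and 6520 in ASO-NC, a ratio of 0.889 (0.843 to 0.937). PSMB5, the chymotrypsin-like site and the main target of proteasome inhibitors such as bortezomib, had 3940 counts in ASO-1235 and 5154 in ASO-NC, a ratio of 0.914 (0.862 to 0.970). After TMM scaling all 3 sites were thus lower by a small amount, with intervals below 1. With scaling by total count, the log2 ratios of PSMB6, PSMB7 and PSMB5 were −0.23, −0.085 and −0.044. With the GC and length trend removed they were −0.15, −0.097 and −0.036, where the median of genes at 20 CPM or more was −0.041. Intervals under these 2 settings are not given here. PSMB3 was at 0.842 (0.823 to 0.862), and the structural subunits PSMB4, PSMB1 and PSMB2 were at 0.900 (0.850 to 0.952), 0.904 (0.839 to 0.975) and 0.932 (0.884 to 0.982). The median log2 ratio of the 7 beta genes was −0.15, or −0.067 with scaling by total count and −0.098 with the GC and length trend removed.

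The alpha ring, which gates the entry to the core, was spread around 1, with a median log2 ratio of −0.018. With the GC and length trend removed, 6 of 7 alpha genes lay below 1 and the median was −0.12, so that the order of the alpha and beta medians turned. PSMA7 was the single alpha gene with an interval that excluded 1, at 2630 counts in the ASO-1235 library and 3886 in the ASO-NC library, a ratio of 0.809 (0.754 to 0.868). PSMA3 had 2954 counts in ASO-1235 and 3577 in ASO-NC, a ratio of 0.988 (0.921 to 1.06). PSMA4 had 5619 counts in ASO-1235 and 6401 in ASO-NC, a ratio of 1.05 (0.997 to 1.10). PSMA5 was at 0.958 (0.883 to 1.04). The uncertain genes PSMA6, PSMA2 and PSMA1 were at 0.857 (0.681 to 1.08), 1.09 (0.724 to 1.63) and 1.13 (0.9497 to 1.351). Wide intervals leave differences of this size not detectable for those 3 genes.

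In the base, 8 of 9 ratios were below 1, where the background was 50.3% of all tested genes and 53.9% of those at 20 CPM or more. With scaling by total count 4 of 9 were below 1. The median log2 ratio of all tested genes was then 0.086, against −0.0025 after TMM scaling. The ATPase gene PSMC3 had the lowest, with 2460 counts in the ASO-1235 library and 3581 in the ASO-NC library, a ratio of 0.821 (0.763 to 0.884). PSMD4, a ubiquitin receptor, was at 0.844 (0.776 to 0.917), and PSMD2, a scaffold that docks substrates and shuttle factors, had 11272 counts in ASO-1235 and 15236 in ASO-NC, a ratio of 0.885 (0.855 to 0.916). The ATPase gene PSMC2 went the other way, with 5625 counts in ASO-1235 and 6228 in ASO-NC, a ratio of 1.08 (1.03 to 1.14). That direction was lost with the GC and length trend removed, where its log2 ratio was −0.088 and PSMC4, at 0.065, was the one base gene above 1. PSMC1, PSMC4, PSMC5, PSMC6 and the scaffold gene PSMD1 lay between 0.915 and 0.990, with intervals that reached 1. NRDE2 on the opposite strand covers 82.1% of the principal transcript of PSMC1, and FTSJ3 covers 27.2% of that of PSMC5. The strand setting of the counting is not given in the sources used here, so these values may hold reads of either gene.

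The lid held the highest ratios of all subunits beside some of the lower ones. PSMD12, a scaffold subunit, had 5757 counts in the ASO-1235 library and 5650 in the ASO-NC library, a ratio of 1.22 (1.16 to 1.28). PSMD6, another scaffold subunit, had 1827 counts in ASO-1235 and 1848 in ASO-NC, a ratio of 1.18 (1.08 to 1.30). PSMD3 was lower, at 0.848 (0.837 to 0.860), and PSMD8 had 5681 counts in ASO-1235 and 8024 in ASO-NC, a ratio of 0.847 (0.807 to 0.889). Subunits of one subcomplex thus stood on both sides of 1. The log2 ratios of PSMD12, PSMD6, PSMD3 and PSMD8 were 0.28, 0.24, −0.24 and −0.24. With the GC and length trend removed they were 0.050, 0.23, −0.080 and −0.081, a smaller spread. PSMD14, the deubiquitinase, had 2900 counts in ASO-1235 and 3394 in ASO-NC, a ratio of 1.02 (0.952 to 1.10). Its partner PSMD7 was at 0.939 (0.863 to 1.02), a gene whose principal transcript overlaps a transcript of the opposite strand over 50.4% of its length. PSMD11 and PSMD13 were at 0.997 (0.9502 to 1.046) and 0.925 (0.838 to 1.02).

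Among the activators, the paired subunits of PA28 stood together. PSME1 had 3533 counts in the ASO-1235 library and 5466 in the ASO-NC library, a ratio of 0.773 (0.728 to 0.821). PSME2 had 3525 counts in ASO-1235 and 5432 in ASO-NC, a ratio of 0.776 (0.730 to 0.824). Both form one ring, are known to be induced by interferon gamma and favour the release of peptides for antigen presentation. The gene of the nuclear activator, PSME3, was at 0.907 (0.863 to 0.954). PSME4, which encodes PA200, had 4249 counts in ASO-1235 and 4485 in ASO-NC, a ratio of 1.13 (1.067 to 1.203), but a log2 ratio of −0.019 with the GC and length trend removed. PSMF1, which encodes the inhibitor PI31, had 6033 counts in ASO-1235 and 7301 in ASO-NC, a ratio of 0.988 (0.941 to 1.04).

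Assembly chaperone genes had a median log2 ratio of 0.037, the only role with a median above 0 after TMM scaling. With scaling by total count the medians of alpha, base and lid genes were above 0 too, and with the trend in GC content and length removed that of the chaperones was −0.016. PSMG4, a chaperone of the alpha ring, had 610 counts in the ASO-1235 library and 956 in the ASO-NC library, the lowest ratio of all members at 0.763 (0.659 to 0.883). Its partner PSMG3 was at 0.887 (0.777 to 1.01). The other chaperone pair of the alpha ring stood otherwise: PSMG2 had 3301 counts in ASO-1235 and 3559 in ASO-NC, a ratio of 1.11 (1.04 to 1.19). PSMG1 was at 0.977 (0.888 to 1.08). Of the chaperones of the base, PSMD5 had 7023 counts in ASO-1235 and 7608 in ASO-NC, a ratio of 1.10 (1.05 to 1.16), but a log2 ratio of −0.016 with the GC and length trend removed. PSMD9, with 399 counts in ASO-1235 and 411 in ASO-NC, and PSMD10, known as gankyrin, had intervals that included 1. Another gene on the same strand covers 28.2% of the principal transcript of PSMD9.

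**Figure D2:**
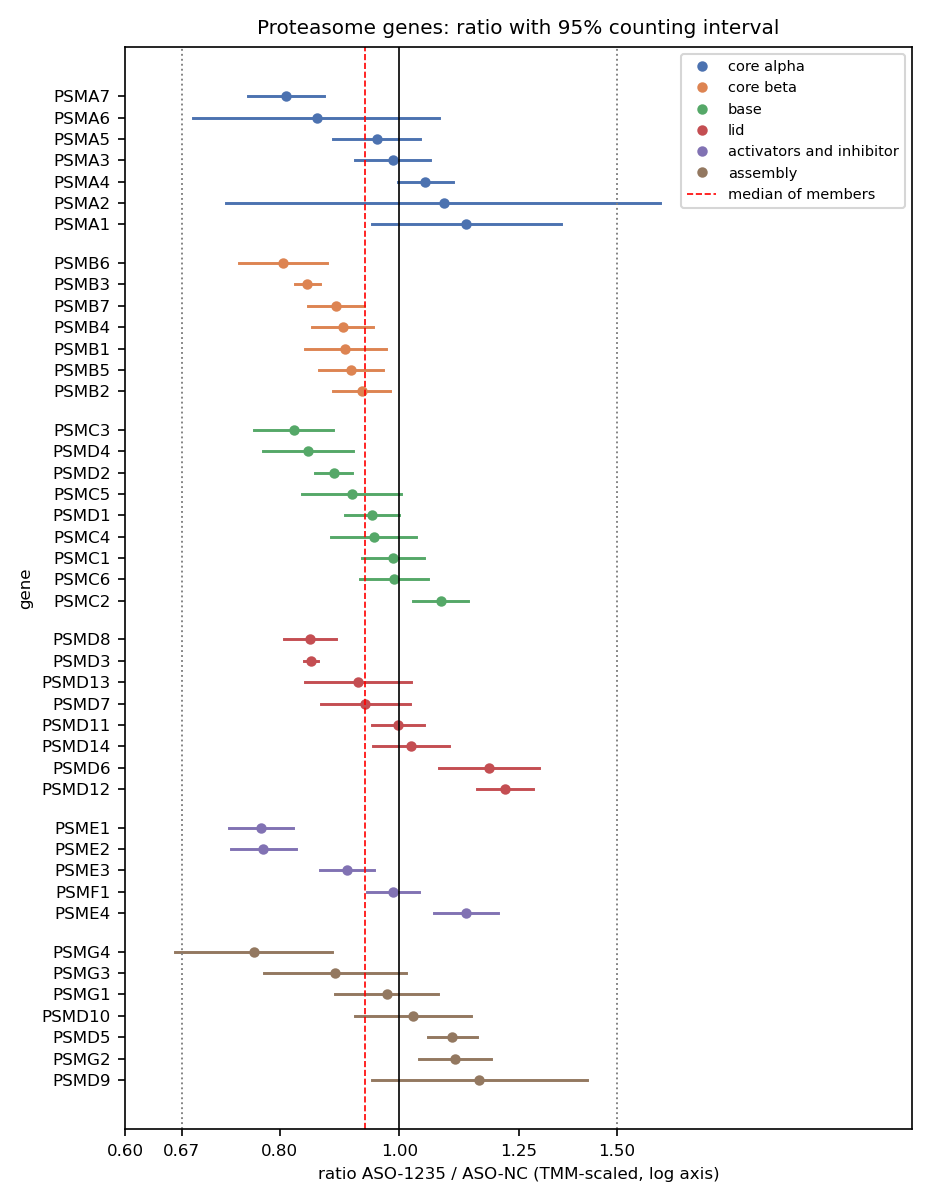
Ratio of each of the 43 members, ASO-1235 over ASO-NC (log axis), with its 95% counting interval on halved counts, grouped by role. The solid line marks 1, the dashed line the members' median of 0.939 and the dotted lines 1.5-fold. Every point lies between the dotted lines. All 7 beta genes lie below 1, where 50.3% of all tested genes do.

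Ratios followed the base composition of the transcripts, in members as in other genes. Among members at 46.2% to 52.1% GC, 11 of 13 ratios were below 1, and among those at 52.1% to 58.5% GC 12 of 13 were, where 53.4% and 70.0% of all tested genes in the same ranges were below 1. At 27.9% to 41.3% GC, 3 of 7 members were below 1, where 18.1% of all tested genes were. Across the 43 members, Pearson's r of the log2 ratio with GC content was −0.66 and Spearman's rho −0.71, against −0.34 and −0.47 across 13963 tested genes; all these points come from the same 2 libraries. Single genes departed from this. PSMC6 and PSMA5, the members lowest in GC content at 36.8% and 37.2%, had log2 ratios of −0.015 and −0.061. PSMG3, the highest at 58.8%, did not depart, at −0.17 where the trend in GC content and length over all genes gave −0.19. Whether composition plays a part in any single ratio was not tested.

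With the trend in GC content and transcript length over all genes removed, the log2 ratio of PSMD12 was 0.05, that of PSMB6 −0.15 and that of PSMD3 −0.08. PSMD6, at 0.23, PSMG2, at 0.23, and PSMD9, at 0.27, were then the highest. PSMA5, at −0.30, PSME1, at −0.26, PSMA6, at −0.26, PSMC6, at −0.24, and PSMG4, at −0.23, were the lowest, and PSME2 was at −0.20. Below 1 lay 36 of 43 members, or 83.7%, where 53.8% of 13963 genes and 4207 of 7015 genes at 20 CPM or more did. The medians were −0.081 for members, −0.022 for the 13963 genes and −0.041 for those at 20 CPM or more.

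**Figure D3:**
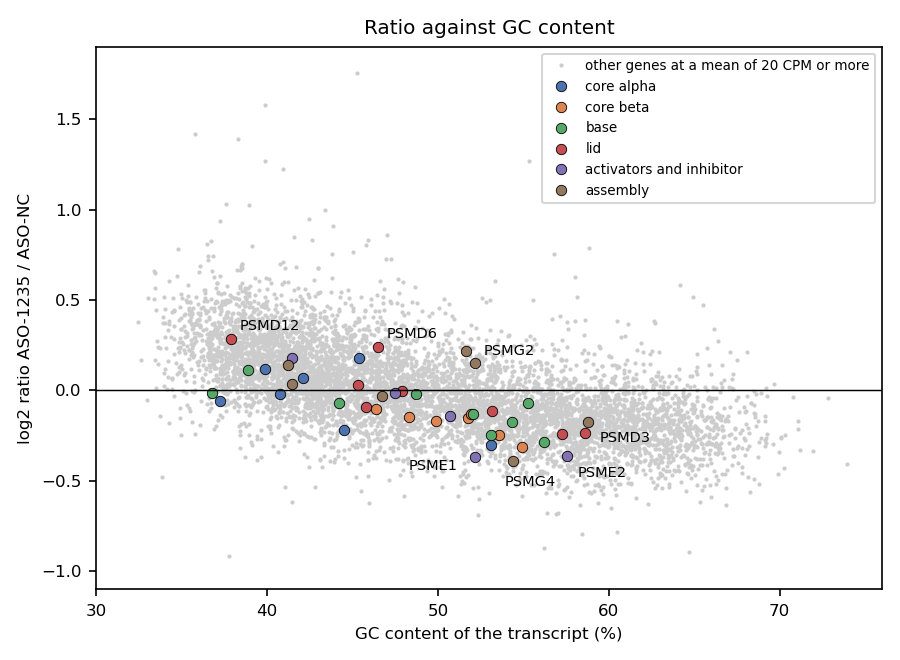
Log2 ratio, ASO-1235 over ASO-NC, against the GC content of the principal transcript for the 43 members, coloured by role, and for other genes with a mean of at least 20 CPM (grey). Both decline towards high GC content, with PSMD12 at 0.28 and 37.9% GC and PSMG4 at −0.39 and 54.4% GC.

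Promoters of 37 of the 43 members were found in RefSeq. The ARE core TGACNNNGC was present on either strand in 12 of them, or 32.4%, where 13.6% of 27305 promoters of the same length held it. The CCAAT box was present in 17, or 45.9%, where 35.7% of all promoters held it. The ETS core CCGGAAG was present in 12, or 32.4%, where 10.7% of all promoters held it. Among the 10635 tested genes with a promoter, the shares were 15.2% for the ARE core, 36.3% for the CCAAT box and 19.2% for the ETS core. Median log2 ratios of members with and without each motif were −0.051 and −0.061 for the ARE core, −0.091 and −0.018 for the CCAAT box, and 0.0081 and −0.073 for the ETS core. Across the 10635 tested genes the medians were −0.0038 and −0.00076 for the ARE core. For the CCAAT box they were −0.0089 and 0.0043, and for the ETS core −0.0017 and −0.0014. Whether a motif plays a part in any ratio was not tested. In the sequences printed above, PSMB3 holds TGACTTTGC 104 bases before the start, and PSMD3 holds TGACTCGGC 37 bases before it.

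The ISRE core, GAAA repeated after 2 bases on either strand, was searched after the values and the PSME1 and PSME2 promoters had been seen. It was present in 5 of the 37 promoters, or 13.5%, where 3.65% of all promoters and 2.72% of those of tested genes held it: those of PSMA4, PSMB4, PSME1, PSME2 and PSMG4. The 3 members with the lowest ratios, PSMG4, PSME1 and PSME2, shared the same letters, GAAAGCGAAA, on the plus strand of PSMG4 33 bases before the start and of PSME2 28 bases before it, and on the opposite strand of PSME1 just after the start. This run, whose letters were read from the PSMG4 promoter, stood in 30 of 27305 promoters, or 0.110%. Of the 10635 tested genes with a promoter, 19 held it, or 0.179%. Leaving out the 3 members, whose low ratios prompted the search, the other 16 had a median log2 ratio of −0.145. They ranged between −0.81 for the immunoproteasome gene PSMB10 and 0.62 for IL12A. Tested genes without the run had a median of −0.0011. These values are a description and support nothing about the run. A match is a run of letters and does not show that a factor binds there.

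The immunoproteasome genes, whose products replace the proteolytic sites of the core in cells exposed to interferon gamma, were far less abundant. PSMB10 had 175 counts in the ASO-1235 library and 368 in the ASO-NC library, a ratio of 0.569 (0.436 to 0.737). A gene on the same strand covers 45.3% of its principal transcript, so these counts are uncertain. PSMB8 had 81 counts in ASO-1235 and 163 in ASO-NC, a ratio of 0.594 (0.397 to 0.876). PSMB9 had 105 counts in ASO-1235 and 92 in ASO-NC, a ratio of 1.36 (0.901 to 2.07). Per length, PSMB5 stood 42.3-fold above PSMB8 in the ASO-1235 library and 27.5-fold in the ASO-NC library, and PSMB7 stood 34.4-fold above PSMB10 in ASO-1235 and 22.0-fold in ASO-NC. PSMB6 stood 17.4-fold above PSMB9 in ASO-1235 and 29.5-fold in ASO-NC.

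Proteasome genes whose names fall outside the rule went both ways, with 3 of 8 ratios below 1. ADRM1, a ubiquitin receptor of the base, was at 0.842 (0.763 to 0.929), and SEM1, the smallest subunit of the lid, at 0.841 (0.755 to 0.937). POMP, the maturation factor of the core, was at 1.02 (0.914 to 1.13). AKIRIN2, which encodes a factor for nuclear import of proteasomes, had 1893 counts in ASO-1235 and 1800 in ASO-NC, a ratio of 1.26 (1.15 to 1.38).

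The route to proteasome transcription was uneven as well. NFE2L1 had 3678 counts in the ASO-1235 library and 5324 in the ASO-NC library, a ratio of 0.826 (0.778 to 0.877). DDI2, which encodes the protease that activates NRF1, had 3697 counts in ASO-1235 and 3568 in ASO-NC, a ratio of 1.24 (1.16 to 1.32). NGLY1, which encodes the enzyme that removes sugars of NRF1, was at 1.19 (1.09 to 1.31). MAFF, a small Maf partner of NRF factors, was the single gene of the 10 past 1.5-fold, at 342 counts in ASO-1235 and 176 in ASO-NC, which gives a ratio of 2.32 (1.79 to 3.04). Of the 10 ratios, 4 were below 1, and 3 with scaling by total count.

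Other genes of the ubiquitin system and comparable complexes stood near the members. Of 6 genes of ubiquitin and its activating enzymes, 5 were below 1, also with scaling by total count, with UBB lowest at 0.794 (0.752 to 0.838) and UBA6 highest at 1.28 (1.199 to 1.374). Among 11 measured genes of the p97 unfoldase and of shuttle factors, UFD1 was lowest at 0.770 (0.712 to 0.833) and UBQLN1 highest at 1.15, with an interval above 1. DDI1 had 0 counts in both libraries. The COP9 signalosome, whose subunits are related to those of the lid, had a median log2 ratio of −0.06, or 0.025 with scaling by total count, with COPS9 at 0.792 (0.658 to 0.951) and COPS3 at 1.19 (1.09 to 1.30). The CCT chaperonin had a median of −0.056, or 0.029 with scaling by total count, with CCT5 at 0.852 (0.827 to 0.877) and CCT2 at 1.08 (1.04 to 1.13). No gene of these 4 lists passed 1.5-fold, and the small shift of the proteasome genes was not set apart from them by any test.

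**Figure D4:**
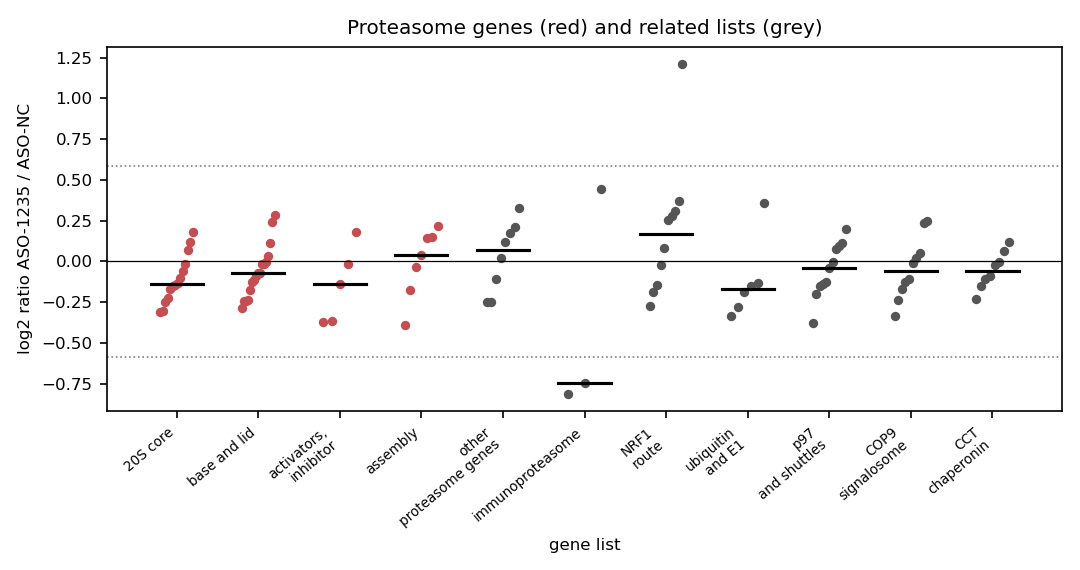
Log2 ratio, ASO-1235 over ASO-NC, of the members as 20S core, 19S base and lid, activators and inhibitor, and assembly genes (red) and of related lists (grey); each point is a gene, bars are medians and dotted lines mark 1.5-fold. Past 1.5-fold lie PSMB8 and PSMB10 of the immunoproteasome and MAFF of the NRF1 route, and no member does.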

How the data were processed

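RNA was sequenced after poly(A) capture in 1 library with the genotype label ASO-1235, whose title has the prefix Si, and 1 library labelled ASO-NC. No label says that these were separate cultures. The authors deposited raw counts per gene. Per the submitters' processing notes, the tools were STAR 2.7.11a and featureCounts 2.0.6, on hg38. Annotation release, strand setting and the handling of shared reads: not given in the sources used here. All 62699 IDs with counts matched a name, and 3 lines were left out. GENCODE 29, which held 58206 IDs, gave coordinates, overlaps, transcript length and GC content (APPRIS principal transcript, otherwise the longest).

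Even counts made up 64.0% of those between 1 and 1000 in the ASO-1235 library and 67.5% in the ASO-NC library, which is why counts were divided by 2 for intervals. TMM factors (edgeR 4.0.16 under R 4.3.3, used for scaling alone) were 1.03 for ASO-1235 and 0.971 for ASO-NC. Intervals are exact binomial ones (Clopper-Pearson, 95%) for the ratio of both counts. Reads copied by PCR carry no molecular identifiers here and may share a molecule, so intervals and floors of 3 counts cover counting error only. Tested genes reached 1 CPM in at least 1 library. A call needed 1.5-fold and an interval without 1. Log2 ratios had a prior count of 0.5, which understates the change of low genes. On simulated pairs of ASO-1235 over ASO-NC with 14291 genes, 95.6% of intervals of unchanged genes contained the truth, and 112 unchanged genes were called. Calls reached 34 of 66 genes with a true 1.5-fold change and 63 of 67 with a true 2-fold change. Every simulated count was even, unlike the data, and none varied beyond counting error. The simulation therefore cannot say how often the real intervals hold the truth.

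The members and gene lists were chosen with earlier results of these data known. By rule every member could be named, with the extremes of each role in full, and of each related list its extremes, its calls and NFE2L1. Other genes with the shared promoter run were named after their values were seen. Alternatives were DESeq2 1.42.0 size factors, total count with and without mitochondrially encoded genes, upper quartile, a removed GC and length trend (robust splines, statsmodels 0.14.6), other minimums, folds and intervals, a prior of 5, and exon unions. Python 3.11.15 was used with numpy 2.4.6, pandas 2.3.3 and scipy 1.17.1.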

Additional observations from a re-analysis of the deposited data

How the results depend on the processing

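No member was called at 1.5-fold under any scaling, minimum, prior count or interval tried, or with the GC and length trend removed. At 1.2-fold 6 were lower and 1 higher, and at 2-fold 0 were. With total count scaling, the median log2 ratio was −0.067 for beta genes, 0.012 for base genes and −0.055 for activators and inhibitor; the cause was not tested. With the GC and length trend removed it was −0.12 for alpha genes and −0.063 for activators and inhibitor. The members' median ran between −0.12 with DESeq2 size factors and −0.0062 with total count, and was −0.054 without mitochondrially encoded genes in the totals, with 25 of 43 below 1. Chosen after the data were seen, leaving out PSMA1, PSMA2 and PSMA6 gave −0.096 with 30 below 1, and leaving out PSMD3 and PSMB3 gave −0.073 with 29. Of 43 single ratios, 16 left their interval with total count and 22 with the trend removed. By the union of annotated exons, PSMD3 stood at 957 TPM in the ASO-1235 library and 992 in the ASO-NC library, and PSMB3 at 1287 TPM in the ASO-1235 library and 1344 in the ASO-NC library. No paired analysis was possible because each group has 1 library. The lowest counts, those of PSMA2, PSMA6, PSMD9 and PSMA1, limit what can be said of those genes.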

Other observations

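Pseudogenes of the members took few counts. Of 44 PSM pseudogenes in the table, 13 had any counts, with 116 in all in the ASO-1235 library and 134 in the ASO-NC library, and 1 reached 1 CPM.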
